A study of Drosophila melanogaster with 8 samples.

Results

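The basement membrane genes described here are vkg, Col4a1, SPARC, Ppn, LanA, LanB1, LanB2 and trol of Drosophila melanogaster, 8 genes of 18960 features in the deposited total RNA table (genes, transposons and transcripts with no gene match). They were taken by symbol: transcript rows were matched by RefSeq identifier and summed by gene. All 8 were among the 8755 features tested. The null group held 2 ovary libraries, 1 from flies with the egt17 allele and 1 from flies with the egt8 allele, both labelled as null alleles of egt. The wild-type group held 2 ovary libraries of the laboratory strain Oregon-R, called wild type 1 and wild type 2. All flies were kept at 25 °C, and the labels give no age, no cross and no count of animals. The series names the mutated gene boot, which was taken to be the gene Boot. Boot acts with an RNA export receptor on transcripts of piRNA clusters in the germline. The labels do not say that libraries of a group came from separate animals, so p-values cover library spread alone, possibly of technical origin.

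A basement membrane is the thin matrix sheet on the basal side of an epithelium. Its frame is a network of collagen IV and a network of laminin, a trimer of an alpha, a beta and a gamma chain, joined by perlecan and other proteins. In the fly ovary it surrounds each egg chamber and is made in large part by the follicle cells. There it is known for its part in egg chamber rotation and elongation. The muscle sheath around the ovarioles has a matrix of its own, and fat body and blood cells (hemocytes) are further known sources of collagen IV in the fly. In a bulk sample more cells of a type cannot be told apart from more RNA per cell.

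Values are FPKM, fragments scaled to transcript length and library size, after removal of the 1 that the authors had added. Depth, estimated from the step between low values, was 6.10 M reads in egt17, 15.8 M in egt8, 6.28 M in wild type 1 and 16.5 M in wild type 2. The libraries resembled each other by depth pair: log2 values correlated at 0.966 between egt17 and wild type 1 and at 0.948 between egt8 and wild type 2, against 0.876 between the alleles and 0.901 between the wild types, across 8755 features. The pairs also parted by gene span. Across 8017 genes the difference of wild type 2 minus wild type 1 had a Spearman correlation of 0.668 with span, and the difference of egt8 minus egt17 one of 0.651. Within the pairs the correlation was -0.032 for egt17 minus wild type 1 and -0.025 for egt8 minus wild type 2. These are descriptions over genes that share libraries and depth. The labels name no batch, so values within each pair stand beside the pooled ones. Boot RNA stood at 40.6 (egt17) and 52.1 FPKM (egt8), against 88.6 (wild type 1) and 89.7 FPKM (wild type 2). Its log2 difference was -0.94 ± 0.32 (SE) with a limma adjusted p of 0.99992, so it was lower in both alleles without passing the test over all features.

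The collagen IV chains had their highest levels in egt8 and lay close to wild type in egt17, and no difference passed the test. They are encoded by vkg (FBgn0016075) and Col4a1 (FBgn0000299), neighbours on chromosome 2L at 5012144 to 5028191 and 5029609 to 5037279 (Release 6 of the genome), with 1417 bases between them. vkg stood at 32.0 (egt17) and 85.0 FPKM (egt8), against 28.7 (wild type 1) and 18.8 FPKM (wild type 2). Col4a1 stood at 45.7 (egt17) and 108 FPKM (egt8), against 41.8 (wild type 1) and 26.6 FPKM (wild type 2). Both null libraries lay above both wild-type libraries for each chain, but egt17 by little and egt8 by much. Against the wild type of its pair, egt17 was 1.11-fold for vkg and 1.09-fold for Col4a1. The corresponding values of egt8 were 4.51-fold and 4.08-fold. The pooled log2 difference, on the log2(FPKM + 1) scale used throughout, was 1.13 ± 0.58 for vkg (SE, n = 2 against 2, limma adjusted p = 0.99992). For Col4a1 it was 1.06 ± 0.54 (limma adjusted p = 0.99992).

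The ratio between the collagen chains was close in all 4 libraries. The level of vkg over that of Col4a1 was 0.701 in egt17 and 0.783 in egt8, against 0.688 in wild type 1 and 0.709 in wild type 2. The highest of these ratios was 1.14 times the lowest. Of 7054 other features ranked by the distance of their library profile from that of vkg (log2 values centred on their own mean over the 4 libraries, mean FPKM of at least 5), Col4a1 was the closest, at a distance of 0.136. The next were betaTub97EF at 0.304, CG6726 at 0.359, LanB1 at 0.368, CG4666 at 0.424 and the transposon 1731 at 0.430. LanB2 ranked 7, SPARC 17 and LanA 105, while Ppn ranked 2151 and trol 2865.

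**Figure D1:**
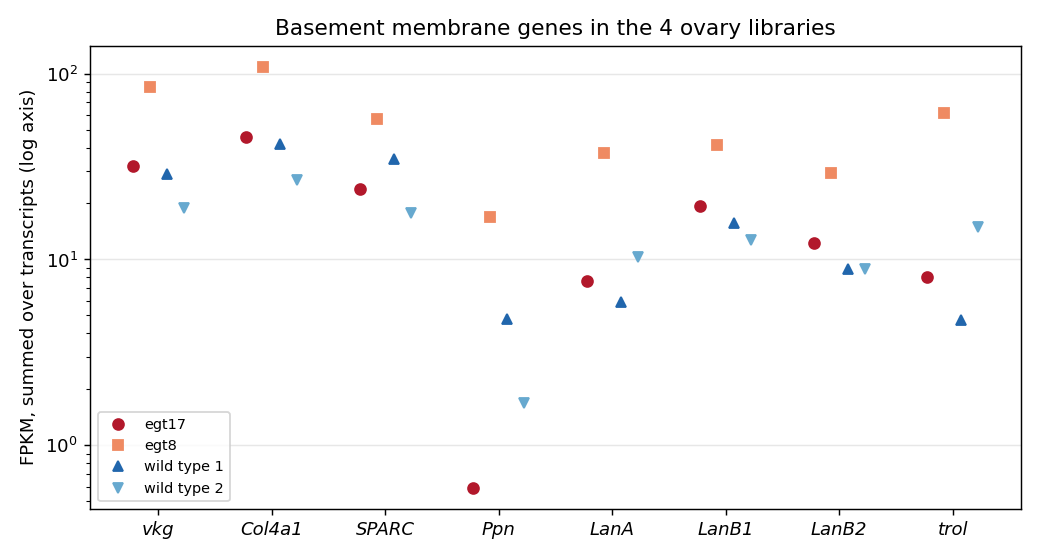
FPKM of each basement membrane gene (horizontal axis) in the 4 libraries, summed over transcripts, on a log axis; each point is 1 library. egt8 is the highest point for all 8 genes, and egt17 lies near the wild types except for Ppn, where at 0.593 FPKM it is the lowest.

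The laminin chains were likewise highest in egt8. LanB1 and LanB2 encode the beta and the gamma chain shared by the fly laminin trimers, and LanA encodes one of the alpha chains. LanB1 (FBgn0261800, 2L, 7811438 to 7820771) stood at 19.4 (egt17) and 41.1 FPKM (egt8), against 15.7 (wild type 1) and 12.8 FPKM (wild type 2). LanB2 (FBgn0267348, 3L, 9614914 to 9623980) stood at 12.3 (egt17) and 29.1 FPKM (egt8), against 8.91 (wild type 1) and 8.86 FPKM (wild type 2). Neither gene's groups overlapped, and the wild-type libraries were closest to each other for LanB2. LanA (FBgn0002526, 3L, 6203831 to 6218022) stood at 7.68 (egt17) and 37.3 FPKM (egt8), against 5.91 (wild type 1) and 10.3 FPKM (wild type 2). Its groups overlapped, since egt17 lay between the wild types, although each null library was above the wild type of its own pair.

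In log2 terms the pooled differences of the laminin chains were 0.95 ± 0.50 for LanB1, 1.02 ± 0.55 for LanB2 and 1.05 ± 0.82 for LanA (SE, limma adjusted p = 0.99992 for each). The beta and gamma chains kept a ratio between 1.41 and 1.76 over the 4 libraries. The ratio of the alpha chain to the beta chain fell into the library pairs. LanA over LanB1 was 0.396 in egt17 and 0.908 in egt8, against 0.378 in wild type 1 and 0.805 in wild type 2. The 2 lower ratios are those of the shallow pair.

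trol (FBgn0284408) encodes perlecan, a large heparan sulfate proteoglycan. With 75.0 kb (X, 2470460 to 2545427) it has the longest span of the 8 genes. It stood at 8.08 (egt17) and 61.2 FPKM (egt8), against 4.75 (wild type 1) and 14.9 FPKM (wild type 2). The wild types differed 3.13-fold from each other here, with wild type 2 the higher, and egt17 lay between them. Within the pairs the null library was higher each time, 1.70-fold for egt17 and 4.11-fold for egt8. The pooled log2 difference was 1.32 ± 1.07 (SE, limma adjusted p = 0.99992). Relative to vkg, trol stood at 0.253 in egt17 and 0.720 in egt8, against 0.165 in wild type 1 and 0.790 in wild type 2, again a split by pair. Over all genes the tenth with the longest span was higher in wild type 2 than in wild type 1 by a median of 0.83 on the log2 scale, and higher in egt8 than in egt17 by 0.84. The part of span in the values of trol was not tested.

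In SPARC and Ppn, unlike the other 6 members, egt17 was below the wild type of its pair. SPARC encodes a secreted protein that binds collagen IV, and Ppn encodes papilin, a matrix glycoprotein with protease inhibitor domains. SPARC (FBgn0026562, 3R, 26869238 to 26871995) stood at 24.0 (egt17) and 57.1 FPKM (egt8), against 34.5 (wild type 1) and 17.8 FPKM (wild type 2). Ppn (FBgn0003137, 3R, 28520665 to 28540324) stood at 0.593 (egt17) and 16.9 FPKM (egt8), against 4.80 (wild type 1) and 1.69 FPKM (wild type 2). For both genes egt8 was above wild type 2, and the groups overlapped. Ppn was the only member whose egt17 value lay below both wild types. It had 0.124 times the level of wild type 1 in egt17 and 10.02 times that of wild type 2 in egt8. The pooled log2 differences were 0.56 ± 0.59 for SPARC and 0.44 ± 1.24 for Ppn (SE, limma adjusted p = 0.99992 for both), each smaller than its SE.

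**Figure D2:**
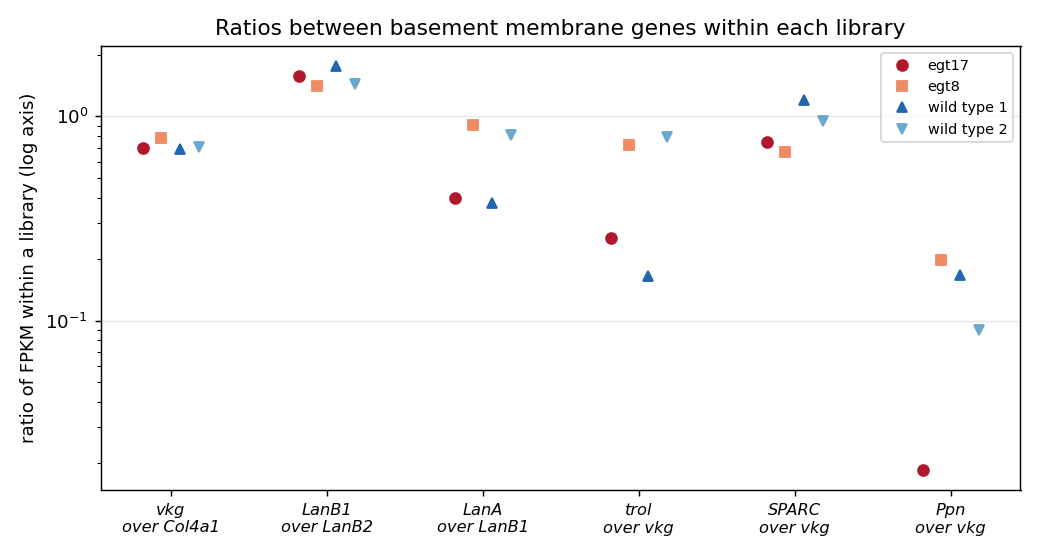
Ratios of FPKM between members within each library, on a log axis; each point is 1 library. vkg over Col4a1 and LanB1 over LanB2 stay close together, LanA over LanB1 and trol over vkg fall into the library pairs, and Ppn over vkg runs from 0.0185 in egt17 to 0.199 in egt8.

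By level in FPKM summed over transcripts, Col4a1 led in all 4 libraries. Ppn was last in all but wild type 1, where trol was. In egt17 the order was Col4a1, vkg, SPARC, LanB1, LanB2, trol, LanA, Ppn. In egt8 it was Col4a1, vkg, trol, SPARC, LanB1, LanA, LanB2, Ppn. In wild type 1 it was Col4a1, SPARC, vkg, LanB1, LanB2, LanA, Ppn, trol, and in wild type 2 trol came after SPARC and before LanB1. The place of trol thus moved most.

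Averaged over the null libraries, Col4a1 had 77.1 ± 44.4 FPKM, vkg 58.5 ± 37.5, SPARC 40.5 ± 23.4, trol 34.7 ± 37.6, LanB1 30.2 ± 15.3, LanA 22.5 ± 20.9, LanB2 20.7 ± 11.9 and Ppn 8.75 ± 11.5 (SD, n = 2). Averaged over the wild-type libraries, Col4a1 had 34.2 ± 10.7 FPKM, SPARC 26.2 ± 11.8, vkg 23.8 ± 6.98, LanB1 14.2 ± 2.06, trol 9.82 ± 7.17, LanB2 8.88 ± 0.033, LanA 8.09 ± 3.08 and Ppn 3.24 ± 2.199 (SD, n = 2). Neighbours in these orders differed by more than the larger of their SDs at 2 places in wild type, between vkg and LanB1 and between LanA and Ppn, and in the null group just between LanB2 and Ppn. The SDs of the null group were larger than those of wild type for every member.

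These levels rest on summing transcripts, whose parts of a gene's sum were most even in LanB2 and least even in trol. The 3 of vkg held 31.3% to 35.5% each and the 3 of Col4a1 31.3% to 35.0%. The 2 of LanB2 held 49.2% to 50.8%, the 2 of LanB1 47.1% to 52.9%, the 2 of SPARC 45.2% to 54.8% and the 4 of Ppn 17.9% to 30.8%. LanA has 1. The 22 transcripts of trol held 1.90% to 6.27% each, around an equal part of 4.55%. Their coefficient of variation was 23.8% in egt17 and 4.04% in egt8, against 24.6% in wild type 1 and 10.5% in wild type 2. How reads shared by transcripts were counted is not given in the sources used here, so the values do not tell the isoforms apart. Taken by its highest transcript alone, trol would stand at 0.424 (egt17) and 2.86 FPKM (egt8), against 0.271 (wild type 1) and 0.789 FPKM (wild type 2). Its place among the members thus depends on the sum, while its order over the libraries does not. The lead of Col4a1 depends on the sum too. By highest transcript alone, LanA was above Col4a1 in egt8 (37.3 against 36.4 FPKM) and in wild type 2 (10.3 against 8.82 FPKM). SPARC was above Col4a1 in wild type 1 (18.5 against 13.7 FPKM), and Col4a1 led in egt17, at 16.0 FPKM.

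As a group, all 8 members had a positive pooled log2 difference, with a median of 1.03, where the median over all 8755 features was -0.06 and 3688 of them were positive. Limma called 0 of the 8 members at an adjusted p of 0.05, as it did 0 of all features (0%). At an unadjusted p under 0.05 it found 0 members higher, against 1.17% of all features. Both null libraries lay above both wild types for 4 of the 8 (vkg, Col4a1, LanB1 and LanB2), against 9.34% of all features. An exact permutation test of 2 against 2 libraries cannot give a two-sided p below 0.333. With the library pair as a term limma again called 0 members, against 0.148% of all features, with adjusted p from 0.273 for trol to 0.872 for Ppn. At an unadjusted p under 0.05 that fit found 6 members higher, against 5.71% of all features. The pooled median was 0.20 without egt8 and 1.75 without egt17, so its size depended on egt8.

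**Figure D3:**
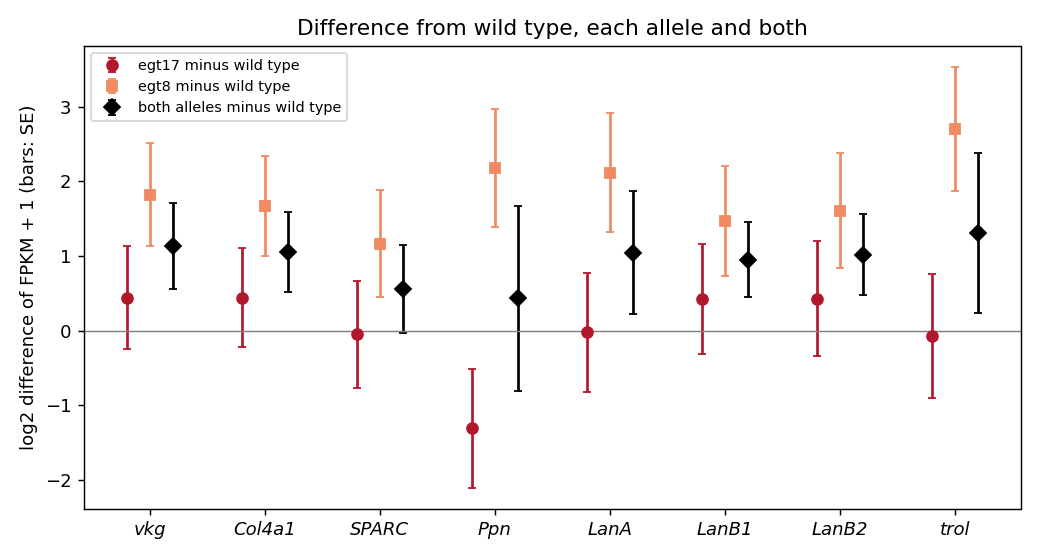
Log2 difference of each member from the mean of both wild types for egt17, egt8 and both alleles pooled, with bars of 1 SE from limma. All 8 points of egt8 lie between 1.17 and 2.70, those of egt17 between -1.31 and 0.44.

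Taken by allele, the egt17 values lay near the mean of both wild types for every member but Ppn. Against wild type 1 of its pair alone, egt17 was 1.70-fold for trol and 0.697-fold for SPARC. The log2 differences from the mean of both wild types were 0.44 for vkg and for Col4a1 and 0.43 for LanB1 and for LanB2. They were -0.02 for LanA, -0.05 for SPARC, -0.07 for trol and -1.31 for Ppn, with SEs from 0.67 to 0.83. The median was 0.20, and that over all features 0.07. Limma called 0 members, against 0.08% of all features (7 features). At an unadjusted p under 0.05 it found 0 members higher, against 1.43% of all features. None of the 8 was at least 2-fold above both wild types, against 3.31% of all features. The fits by allele have 1 residual degree of freedom, from the wild types, and assume that a lone allele library varies like them.

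In egt8 every member was the highest of the 4 libraries, against 16.5% of all features. The log2 differences from wild type ran from 1.17 ± 0.72 for SPARC to 2.70 ± 0.83 for trol, with LanA at 2.12 ± 0.80 and Ppn at 2.18 ± 0.80 (SE). Their median was 1.75, against -0.15 over all features. Limma called 0 members, against 0.0914% of all features (8 features), and the lowest adjusted p was 0.873, for trol. At an unadjusted p under 0.05 it found 5 members higher (vkg, Col4a1, Ppn, LanA and trol), against 1.54% of all features. At least 2-fold above both wild types were 7 of the 8, all but SPARC, against 3.96% of all features.

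The difference between the alleles was tested as well. Limma called 0 members for egt8 against egt17, and 0 of all features (0%). At an unadjusted p under 0.05 it found 3 members higher in egt8, against 1.58% of all features. These were Ppn with a log2 difference of 3.49 ± 0.92, trol with 2.78 ± 0.96 and LanA with 2.14 ± 0.92 (SE, limma adjusted p of 0.506, 0.506 and 0.681). Since the alleles sit in different library pairs, allele and pair cannot be told apart in this contrast. Within the pairs 6 of the 8 members were higher in the null library both times, against 24.9% of all features, and SPARC and Ppn were not. The median within-pair log2 difference of the members was 0.22 for egt17 minus wild type 1 and 1.87 for egt8 minus wild type 2, where all features had 0.0036 and -0.14.

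**Figure D4:**
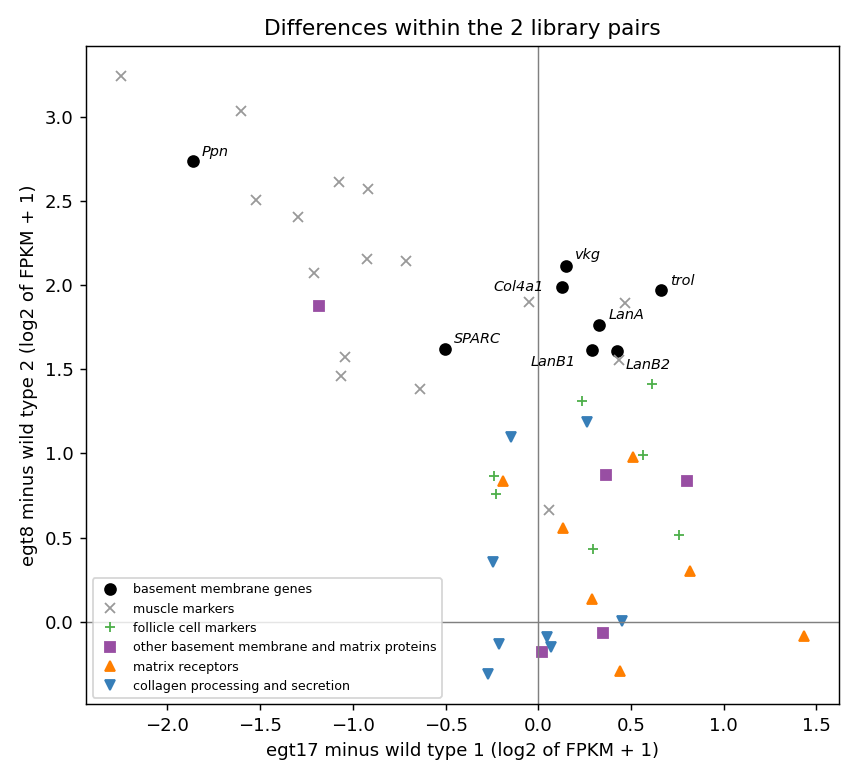
Log2 difference within the first library pair (egt17 minus wild type 1, horizontal) and the second (egt8 minus wild type 2, vertical) for the 8 members and for the tested genes of 5 other lists; each point is 1 gene. All 8 members lie above 0 vertically, and Ppn and SPARC lie left of 0 among the muscle markers.

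Muscle markers lay mostly below the paired wild type in egt17 and above it in egt8, as SPARC and Ppn did. Of 19 muscle markers, 16 were tested. In egt17, 3 of these were higher than in wild type 1, against 4427 of all 8755 features. In egt8, 16 were higher than in wild type 2, against 3268 of all features. The highest library was egt8 for 15 of them, against 16.5% of all features. The summed level of all 19 was 122 (egt17) and 582 FPKM (egt8), against 312 (wild type 1) and 91.5 FPKM (wild type 2). The median within-pair log2 difference of the tested muscle markers was -0.98 in egt17 and 2.11 in egt8. The muscle myosin gene Mhc stood at 2.28 (egt17) and 42.9 FPKM (egt8), against 8.97 (wild type 1) and 4.36 FPKM (wild type 2). Limma called 0 of the 16, of which Zasp66 had the highest pooled log2 difference (1.18 ± 0.54) and TpnC47D the lowest (0.20 ± 0.79). Among the features ranked by distance, the 1 closest to Ppn was Mhc at 0.364. The transposon springer (0.418) and Cyp6g1 (0.678) came next, then Prm (0.721) and Act57B (0.831), both of muscle, and tty. The closest to SPARC was CG45076 at 0.110, followed by wbl and nemy, with the muscle markers wupA and Mlp60A at places 4 and 5. The closest to Col4a1 was vkg, with wupA at place 6. The closest to LanB1 was CG6726 at 0.051, and the closest to LanB2 was betaTub97EF at 0.186. The muscle marker Mf was second closest to LanB1, at 0.115, and the third closest to LanB2, at 0.237. Of the 6 closest to LanA, the follicle cell marker tj was at place 6, and the 6 closest to trol held no listed marker. That look at genes other than vkg was chosen after the values were seen.

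Fat body markers summed to the most in egt8 as well, and in wild type 2 most of the sum was apolpp, a lipid carrier gene, at 4.82 FPKM. Their summed level over 8 genes was 0.492 (egt17) and 19.3 FPKM (egt8), against 0.653 (wild type 1) and 5.12 FPKM (wild type 2). At 0 were 4 of the 8 genes in egt17, 0 in egt8 and 4 in each wild type. Lsp2, a larval storage protein gene, stood at 0.207 (egt17) and 6.88 FPKM (egt8), against 0.064 FPKM in wild type 1, and was listed at 0 in wild type 2. Only apolpp of this list was tested, with a log2 difference of 0.07 ± 1.16. The hemocyte markers Hml, NimC1, NimC2 and eater were at or below 0.593 FPKM in every library, and He was listed at 0 in all. Hml, NimC1, NimC2 and eater were each highest in egt8 and lower in egt17 than in wild type 1. In these 2 shallow libraries the largest of their values was 0.183 FPKM, of NimC1 in wild type 1, so their order there rests on few reads. Hml stood at 0.014 (egt17) and 0.593 FPKM (egt8), against 0.135 (wild type 1) and 0.031 FPKM (wild type 2). None of the 4 passed the filter for testing, and neither did Sr-CI. That marker was highest in wild type 2, at 0.789 FPKM, against 0.074 (egt17), 0.381 (egt8) and 0.072 FPKM (wild type 1). The hemocyte list summed to 80.7 (egt17) and 91.0 FPKM (egt8), against 82.4 (wild type 1) and 129 FPKM (wild type 2), mostly through crq. Its 2 tested genes, crq and srp, had log2 differences of -0.25 ± 0.33 and -0.47 ± 0.96, and both were highest in wild type 2. The 5 trachea markers were untested, with sums of 1.71 (egt17) and 3.39 FPKM (egt8), against 1.44 (wild type 1) and 1.97 FPKM (wild type 2).

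Markers of the labelled tissue were present in every library. Germline markers (8, all tested) summed to 1146 (egt17) and 1754 FPKM (egt8), against 1084 (wild type 1) and 1609.5 FPKM (wild type 2). Their pooled differences ran from -0.42 ± 0.47 for nos to 0.42 ± 0.72 for orb, both of which encode translational regulators, and limma called 0. Follicle cell markers (8, of which 7 were tested) summed to 54.8 (egt17) and 128 FPKM (egt8), against 39.4 (wild type 1) and 63.0 FPKM (wild type 2). All 7 tested had a positive pooled difference, from 0.26 ± 0.64 for mirr to 1.01 ± 0.55 for kek1, with a median of 0.64, and limma called 0. Like the members, all 7 were highest in egt8, against 6 of the 8 germline markers and 16.5% of all features. In egt17, 5 of the 7 were above wild type 1, against 4427 of all 8755 features. Unlike the members, they were mostly higher in wild type 2 than in wild type 1. The median log2 difference of wild type 2 minus wild type 1 was 0.47, and that of the members -0.43. Within the pairs the median log2 difference of the 7 was 0.30 for egt17 and 0.87 for egt8. The 8 members together summed to 149.8 (egt17) and 436 FPKM (egt8), against 145 (wild type 1) and 112 FPKM (wild type 2). The part of muscle, fat body, hemocyte or follicle cell RNA in the members' values was not tested.

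**Figure D5:**
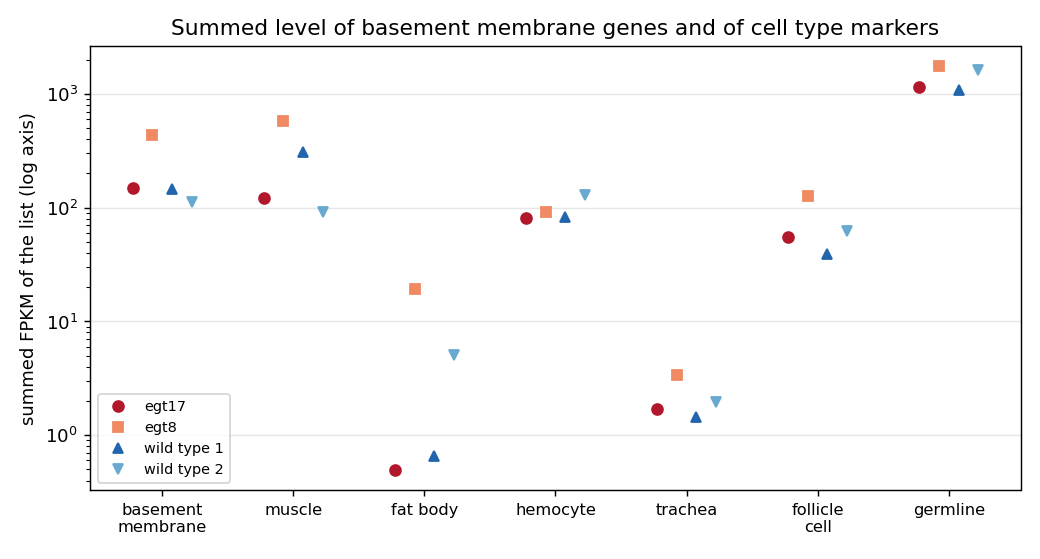
Summed FPKM of the basement membrane genes and of 6 lists of cell type markers in each library, on a log axis; each point is 1 library. egt8 has the highest sum for basement membrane, muscle, fat body, trachea, follicle cell and germline lists. Wild type 2 has the highest hemocyte sum, which is mostly crq. The low hemocyte markers Hml, NimC1, NimC2 and eater are each highest in egt8, and Sr-CI is highest in wild type 2.

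Genes of other listed matrix proteins were at or below 8.51 FPKM in every library, except dlp. Of 8 listed, 5 were tested, 4 with a positive and 1 with a negative pooled difference, a median of 0.35 and 0 called by limma. dally, a glypican gene, had the highest, 0.82 ± 0.59, and dlp, another glypican gene, the lowest, -0.08 ± 0.50. Pxn, which encodes the peroxidase that crosslinks collagen IV, stood at 1.47 (egt17) and 6.55 FPKM (egt8), against 4.60 (wild type 1) and 1.05 FPKM (wild type 2). That is the same order of libraries within the pairs as for SPARC and Ppn. The second laminin alpha chain gene wb stood at 1.20 (egt17) and 2.80 FPKM (egt8), against 0.706 (wild type 1) and 1.07 FPKM (wild type 2). Of the 5 tested genes, 1 (wb) had both null libraries above both wild types, against 9.34% of all features. Nidogen, from Ndg, was at or below 0.294 FPKM in every library.

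Genes for collagen modification and secretion were as often lower as higher. All 8 were tested, 4 positive and 4 negative, with a median of 0.02 and 0 called by limma. Plod, the lysyl hydroxylase gene, had the highest difference, 0.72 ± 0.39. It stood at 35.2 (egt17) and 52.4 FPKM (egt8), against 29.2 (wild type 1) and 22.5 FPKM (wild type 2). Of the 8 genes, 1 (Plod) had both null libraries above both wild types, against 9.34% of all features. The prolyl hydroxylase gene PH4alphaEFB stood at 10.8 (egt17) and 19.9 FPKM (egt8), against 12.0 (wild type 1) and 8.78 FPKM (wild type 2). Crag, needed for polarised secretion of basement membrane proteins, had the lowest, -0.29 ± 0.44, and Tango1, an export factor for collagen, had -0.17 ± 0.51.

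Receptors and proteases had smaller median differences than the members. Of 10 matrix receptors, 7 were tested, all with a positive pooled difference and a median of 0.34. The integrin alpha chain gene mew had the highest, 0.74 ± 0.47, and scb, another, the lowest, 0.07 ± 0.44. Dystroglycan (Dg) stood at 12.4 (egt17) and 32.0 FPKM (egt8), against 11.2 (wild type 1) and 21.4 FPKM (wild type 2). Of 6 proteases and inhibitors, 5 were tested, 4 positive and 1 negative, with a median of 0.27, from -0.19 ± 0.67 for AdamTS-A to 0.72 ± 0.44 for Mmp1. The intracellular integrin adhesion complex (10 tested, 4 positive and 6 negative) had a median of -0.10, from -0.50 ± 0.40 for Fit2 to 0.12 ± 0.45 for by, a tensin gene. Limma called 0 genes of these 3 lists in any of the 4 comparisons.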

How the data were processed

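Total RNA of 4 ovary libraries was used, and small RNA values were not used here. The authors' total RNA table holds 35502 rows of FPKM, each raised by 1, as the minimum of 1 in each library shows, and 1 was subtracted. Bowtie2 2.2.4 and build dm6 appear in the submitters' processing notes without a role. How reads were counted, shared reads included, and whether strand was used is not given in the sources used here. Of 35327 transcript rows, 32986 matched a RefSeq gene (Release 6), and the others stayed features of their own. Depth was estimated from the steps of low values, of which 57.6% to 62.1% came out whole within 0.05 of a read, so it is approximate.

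Features with at least 1 FPKM in at least 2 libraries were tested with limma 3.58.1 (R 4.3.3) on log2(FPKM + 1), with a variance trend, two-sided, with Benjamini-Hochberg adjustment over all features at 0.05. The code was tested on simulated data with independent noise and no library pairs. These libraries fall into pairs, so that run does not tell how the fits behave on them. Both alleles against both wild types had 2 residual degrees of freedom. A second fit gave each allele a group of its own. No batch was named by the labels, and the library pairs were read from depth and correlation. Alternatives were other pseudocounts (0.1 and 5), no filter or one of 5 FPKM, no trend, the transcript with the highest mean, median-ratio scaling, each library left out and a library pair term. Genes of other lists were named for the highest or lowest pooled difference, for passing a test or for being 2-fold apart in both alleles, and others after their values were seen. Tables and figures were made with Python 3.11.15, numpy 2.4.6, pandas 2.3.3 and matplotlib 3.10.9. The members, lists and tests were chosen with earlier results of these data known.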

Additional observations from a re-analysis of the deposited data

Results flagged for a closer look

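SPARC and Ppn were opposite in the alleles: the null library was below its paired wild type in egt17 and above it in egt8. The log2 difference of egt8 minus wild type 2, less that of egt17 minus wild type 1, was 2.13 for SPARC and 4.60 for Ppn. With 1 library per allele in each pair this difference was not tested. The contrast of egt8 against egt17, which also holds the difference between the library pairs, gave limma adjusted p of 0.876 for SPARC and 0.506 for Ppn. Muscle markers went the same ways, with within-pair medians of -0.98 in egt17 and 2.11 in egt8, and their part in the result was not tested.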

How the results depend on the processing

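No alternative called a member: the lowest adjusted p was 0.273 for the null group, 0.973 for egt17, 0.402 for egt8 (each against wild type) and 0.356 for egt8 against egt17. The pooled median log2 difference ran from 0.20 to 1.75 as single libraries were left out, lowest without egt8 and highest without egt17. Left out in the same way, the pooled values ran from -0.047 to 1.17 for SPARC, -1.31 to 2.18 for Ppn, -0.024 to 2.12 for LanA and -0.073 to 2.70 for trol, each negative without egt8; Ppn was also negative without wild type 2, at -0.12. The egt17 median of 0.20 became 0.43 with the filter of 5 FPKM, which drops Ppn, and 0.40 by highest transcript, which drops trol. It was 0.42 without wild type 1 and 0.22 without wild type 2, and stayed at 0.20 without egt8. With 1 wild type left out, egt17 values ran from -0.50 to 0.41 for SPARC, -0.38 to 0.33 for LanA and -0.81 to 0.66 for trol. The egt8 median of 1.75 became 1.499 with a pseudocount of 5, 1.57 by highest transcript and 1.92 with scaling, and lay between 1.57 and 1.87 with 1 wild type left out. For egt8 against egt17 the median of 1.31 became 1.56 with scaling and 1.65 within pairs. The scaling divided the values by size factors with a log2 of 0.12 in egt17, -0.14 in egt8, 0.11 in wild type 1 and -0.04 in wild type 2. It thus lowered values in egt17 and wild type 1 and raised them in egt8 and wild type 2. Among the other 344 values, medians moved by no more than the spread between libraries. Values of single members kept their direction and, where a test applied, their side of the threshold. Where no test applied, the size of the move of a single member was not set against a spread. The labels do not pair the libraries, so the only paired fit used the library pairs read from the data; its values stand with the pooled result. The estimated depth of the pair of egt17 and wild type 1 was the lower one, which limits precision there. The causes were not tested.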
